A study of Homo sapiens with 3 samples.

Results

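T47D breast cancer cells given the peptide ERα17p were compared with T47D cells given estradiol, on 2 of the 3 Affymetrix HG-U133 Plus 2 arrays that were deposited. Both cultures were first held for 4 h in medium with 10% charcoal-stripped serum, which is depleted of steroid hormones. Cells of the 2 cultures then received estradiol or ERα17p, each at 1 µM, and RNA was harvested after 3 h. The array labelled as ethanol vehicle was not used, and an ethanol solvent is named in the labels for that culture alone. Every non-control probe set was taken as ERα17p minus estradiol, and a gene's value was the mean over the probe sets annotated to it alone, for 19775 genes. There was 1 array on each side, so no difference has an error between cultures and no test was run. An SD given with a gene is the spread over its n probe sets on these same arrays. Without the vehicle, a higher transcript after estradiol and a lower transcript after the peptide cannot be told apart, and in bulk RNA neither can fewer expressing cells and less RNA per cell.

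Estrogen receptor α is a nuclear receptor that, once bound by estradiol, acts on DNA directly or through other factors to raise some genes and lower others within hours. In luminal breast cancer cells its well-known induced genes include TFF1, GREB1, MYC, PGR and CXCL12. The peptide ERα17p has the sequence of a short segment of the receptor, where the hinge meets the ligand-binding domain, and that segment also binds calmodulin. T47D is a luminal breast cancer cell line of human origin, positive for estrogen receptor α and for the progesterone receptor.

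The deposited values are on a log2 scale and are set around 0 for each probe set, relative to a baseline that is not given. The sign of a value on a single array therefore has no meaning of its own, levels cannot be set against each other between genes, and the cell type could be checked only by differences. The 2 arrays were close to each other: the SD of gene differences was 0.20, and the central 95% of genes lay between −0.38 and 0.40. None of 15 luminal breast markers and none of 16 basal, stromal, endothelial and blood cell markers differed by 1.5-fold, with ranges of −0.55 to 0.50 and −0.28 to 0.19. The 12 reference genes measured lay between −0.14 and 0.14. The 27 probe sets for the poly-A spikes, which are added to the RNA before labelling, averaged −0.23 ± 0.24 (SD, n = 27 probe sets), and those for the hybridisation spikes averaged −0.02 ± 0.20 (SD, n = 18 probe sets). The part of these technical differences in the gene differences was not tested.

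With ERα17p, 103 genes (0.521% of 19775) were at least 1.5-fold higher than with estradiol and 120 genes (0.607%) were at least 1.5-fold lower. When the values of the arrays were quantile-matched to each other, the split was 126 higher and 111 lower. At 2-fold, 12 genes (0.0607%) were higher and 17 (0.0860%) were lower. The 1.5-fold line fell within a continuous range of values: BBS10 at 0.59 and ZNF257 at −0.59 were the last genes inside it, and EFCAB3 at 0.58 and PPM1K at −0.58 were the nearest outside. Of the higher genes, 84 rested on 1 probe set, and in 18 of the other 19 all probe sets differed in the same direction. Of the lower genes, 85 rested on 1 probe set, and in 33 of the other 35 all probe sets shared the direction. In 9 genes each way every probe set was past 1.5-fold.

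**Figure D1:**
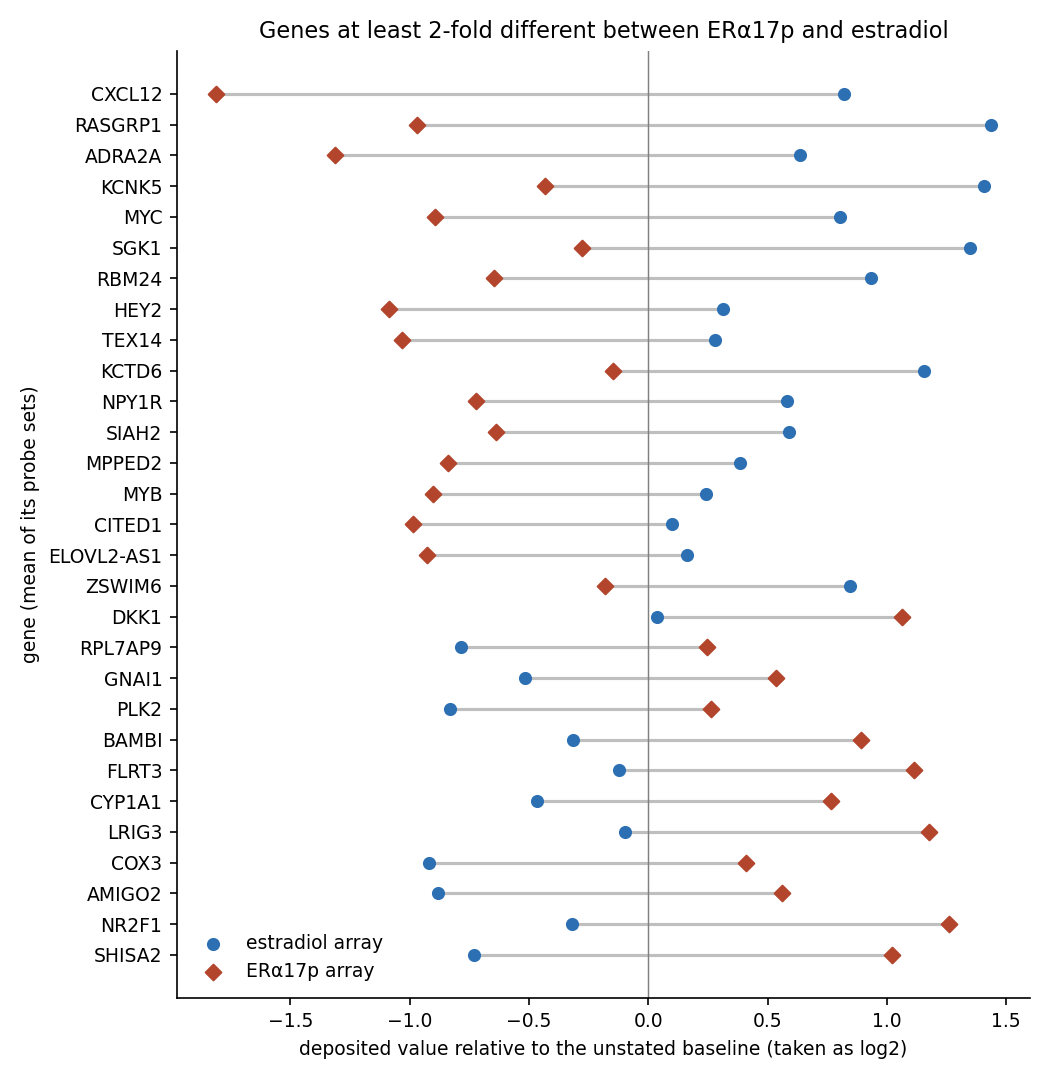
Deposited log2 value of each gene that differed at least 2-fold, with estradiol (circles) and with ERα17p (diamonds), as the mean over the gene's probe sets. The lower genes reach from CXCL12, at 0.82 with estradiol and −1.81 with ERα17p, to ZSWIM6, and the higher genes reach from SHISA2, at −0.73 and 1.02, to DKK1.

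CXCL12 was the gene furthest below its estradiol value. It encodes the chemokine SDF-1, which signals through CXCR4. Its value was 0.82 with estradiol and −1.81 with ERα17p, a difference of −2.63 ± 0.67 (SD, n = 2 probe sets) or 6.20-fold. Both of its probe sets were low with the peptide, at 0.93 and −2.18 for the one and 0.71 and −1.45 for the other. The receptors of CXCL12 did not share this difference: CXCR4 was at 0.07 ± 0.29 (SD, n = 3 probe sets) and the scavenging receptor ACKR3 at 0.07 ± 0.41 (SD, n = 3 probe sets). The remaining genes of the 8-gene CXCL12 list lay within 1.5-fold, and CXCL14, at 0.18, was the highest of them.

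Several other genes at least 2-fold lower act in signalling at the cell surface or inside the cell. RASGRP1, a diacylglycerol-activated exchange factor that switches on Ras, was at 1.44 with estradiol and −0.97 with ERα17p, a difference of −2.41 (5.31-fold). ADRA2A, the α2A-adrenergic receptor, was at 0.64 and −1.32 (−1.95, or 3.87-fold). KCNK5, a potassium leak channel, was at 1.41 and −0.43 (−1.84). Each of these rested on 1 probe set. The kinase SGK1, known as a target of steroid hormones and of PI3K signalling, was at 1.35 and −0.28 (−1.63). NPY1R, the Y1 receptor for neuropeptide Y, was at 0.58 and −0.72 (−1.30). Outside signalling, RBM24, an RNA-binding splicing regulator, was at 0.93 and −0.65 (−1.58).

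Regulators of transcription and of protein turnover filled most of the remaining places at 2-fold lower. MYC, which drives growth and ribosome production, was at 0.80 with estradiol and −0.90 with ERα17p (−1.70, or 3.25-fold). HEY2, a repressor downstream of Notch, differed by −1.40 ± 0.02 (SD, n = 2 probe sets). MYB differed by −1.14 ± 1.12 (SD, n = 2 probe sets), and its probe sets disagreed in size, at −1.94 and −0.35. CITED1, a transcriptional coregulator, was at 0.10 and −0.99 (−1.09). The ubiquitin ligase SIAH2 was at 0.59 and −0.64 (−1.23), and KCTD6, an adaptor for a ubiquitin ligase, differed by −1.30 ± 0.15 (SD, n = 2 probe sets). TEX14 (−1.31), which is needed for the bridges between germ cells, MPPED2 (−1.22 ± 1.35, SD, n = 2 probe sets), the antisense transcript ELOVL2-AS1 (−1.09) and ZSWIM6 (−1.03) completed the 17. In MPPED2 the probe sets were at −2.18 and −0.27, so its place among these genes came from a single set.

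Genes higher with the peptide were led by SHISA2 and NR2F1. SHISA2, a membrane protein that holds back the maturation of Wnt and FGF receptors, was at −0.73 with estradiol and 1.02 with ERα17p, a difference of 1.75 (3.37-fold). NR2F1, the orphan nuclear receptor COUP-TF1, was at −0.32 and 1.26 (1.58, or 2.99-fold). Both rested on 1 probe set. AMIGO2, an adhesion protein, was at −0.88 and 0.56 (1.44). CYP1A1, the cytochrome P450 best known as a target of the aryl hydrocarbon receptor, was at −0.47 and 0.77 (1.23, or 2.35-fold). BAMBI, a receptor without a kinase domain that blocks TGF-β and BMP signalling, was at −0.31 and 0.89 (1.21).

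The other genes at least 2-fold higher included more inhibitors and surface proteins. LRIG3 was at −0.10 and 1.18 (1.27), and FLRT3, an adhesion protein that also modulates FGF signalling, differed by 1.23 ± 0.15 (SD, n = 2 probe sets). The kinase PLK2 was at −0.83 and 0.26 (1.10). GNAI1, an inhibitory G-protein subunit, differed by 1.05 ± 0.58 (SD, n = 2 probe sets), and the secreted Wnt antagonist DKK1 was at 0.04 and 1.06 (1.03). The remaining 2 are less certain in identity. RPL7AP9 (1.03) is a pseudogene of a ribosomal protein, and a probe set for it cannot be told apart here from its parent gene and other copies. COX3 (1.33) is encoded in the mitochondrial genome and rested on 1 probe set whose identifier marks it as open to cross-hybridisation. Among the 7 mitochondrial mRNAs measured it was the sole gene past 1.5-fold, ND6 was at −0.58 and ATP6 at 0.50 ± 0.47 (SD, n = 2 probe sets).

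Many genes known to be induced by estrogen were lower with ERα17p. Of 60 measured members of a list of 66 such genes, 20 (33.3%) were at least 1.5-fold lower, 1 was at least 1.5-fold higher and 52 lay below 0. The median was −0.40 and the mean −0.50, beside a median of 0.01 over all 19775 genes. Of all genes, 0.607% were at least 1.5-fold lower and 0.521% higher. When sets whose identifiers end in _x_at or _s_at were left out, the median of the remaining 51 members was −0.24. Members with no other set dropped out, among them MYC, KCNK5 and NPY1R, so this median covers fewer genes. The remaining lists held 376 measured genes that were in neither the estrogen-induced nor the estrogen-repressed list. Of these, 3 (0.798%) were lower and 5 (1.33%) were higher, with a median of −0.03. Members shared with the estrogen lists, such as CXCL12, MYC and HEY2, were not counted there. The estrogen-induced list was chosen with earlier results from these arrays known, so its count describes these arrays and is not independent evidence of a direction.

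The 20 lower members cover several roles. CXCL12, RASGRP1, KCNK5, MYC, HEY2, NPY1R, SIAH2 and MYB were past 2-fold. Among the classic markers of estrogen action, TFF1, a secreted trefoil peptide, was at 0.03 with estradiol and −0.71 with ERα17p (−0.74, or 1.67-fold). GREB1, a cofactor of the receptor, was at 0.49 and −0.21, a difference of −0.70 ± 0.60 (SD, n = 3 probe sets). Its probe sets were at −1.18, −0.91 and −0.02, so the smallest value was near 0. NRIP1, a corepressor that the receptor itself induces, differed by −0.89 ± 0.14 (SD, n = 2 probe sets). UGCG, which makes glucosylceramide, differed by −0.97 ± 0.14 (SD, n = 3 probe sets), and CISH, an inhibitor of cytokine signalling, by −0.87 ± 0.06 (SD, n = 3 probe sets). These last genes had probe sets that agreed closely with each other. RAPGEFL1 (−0.94), the receptor tyrosine kinase RET (−0.82 ± 0.41, SD, n = 3 probe sets), ZNF703 (−0.77 ± 0.73, SD, n = 2 probe sets), FHL2 (−0.76), STC2 (−0.70), IGFBP4 (−0.65) and the metalloprotease AMZ1 (−0.65) made up the rest. The sets of ZNF703 lay at −1.29 and −0.25, and the former is the value without the set ending in _s_at.

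Other well-known members were closer to 0. PGR, the progesterone receptor, differed by −0.55 ± 0.24 (SD, n = 2 probe sets) and CCND1, which encodes cyclin D1, by −0.37 ± 0.08 (SD, n = 2 probe sets). Both lay short of 1.5-fold. AMIGO2, at 1.44, was the sole member at least 1.5-fold higher, and 8 of the 60 measured members lay above 0.

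Genes known to be repressed by estrogen leaned the other way. Of 42 measured members of a list of 45, 9 (21.4%) were at least 1.5-fold higher, beside 0.521% of all genes. Only 1 (2.38%) was at least 1.5-fold lower, beside 0.607%, and 28 lay above 0, with a median of 0.15. NR2F1, CYP1A1, BAMBI and PLK2 led the higher members. TGFB2, a TGF-β ligand, was at −0.19 and 0.59, a difference of 0.79 ± 0.60 (SD, n = 5 probe sets) with single sets from 0.11 to 1.63. DDIT4, an inhibitor of mTORC1, was at −0.56 and 0.17 (0.74). ID2, which blocks basic helix-loop-helix factors, differed by 0.73 ± 0.07 (SD, n = 2 probe sets). BCAS1 (0.63) and the atypical cyclin CCNG2 (0.61 ± 0.39, SD, n = 5 probe sets) stood just past the line. IER3, an immediate early gene linked to survival, was the lower member, at 0.06 and −0.70 (−0.76). This list, too, was chosen with earlier results known.

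**Figure D2:**
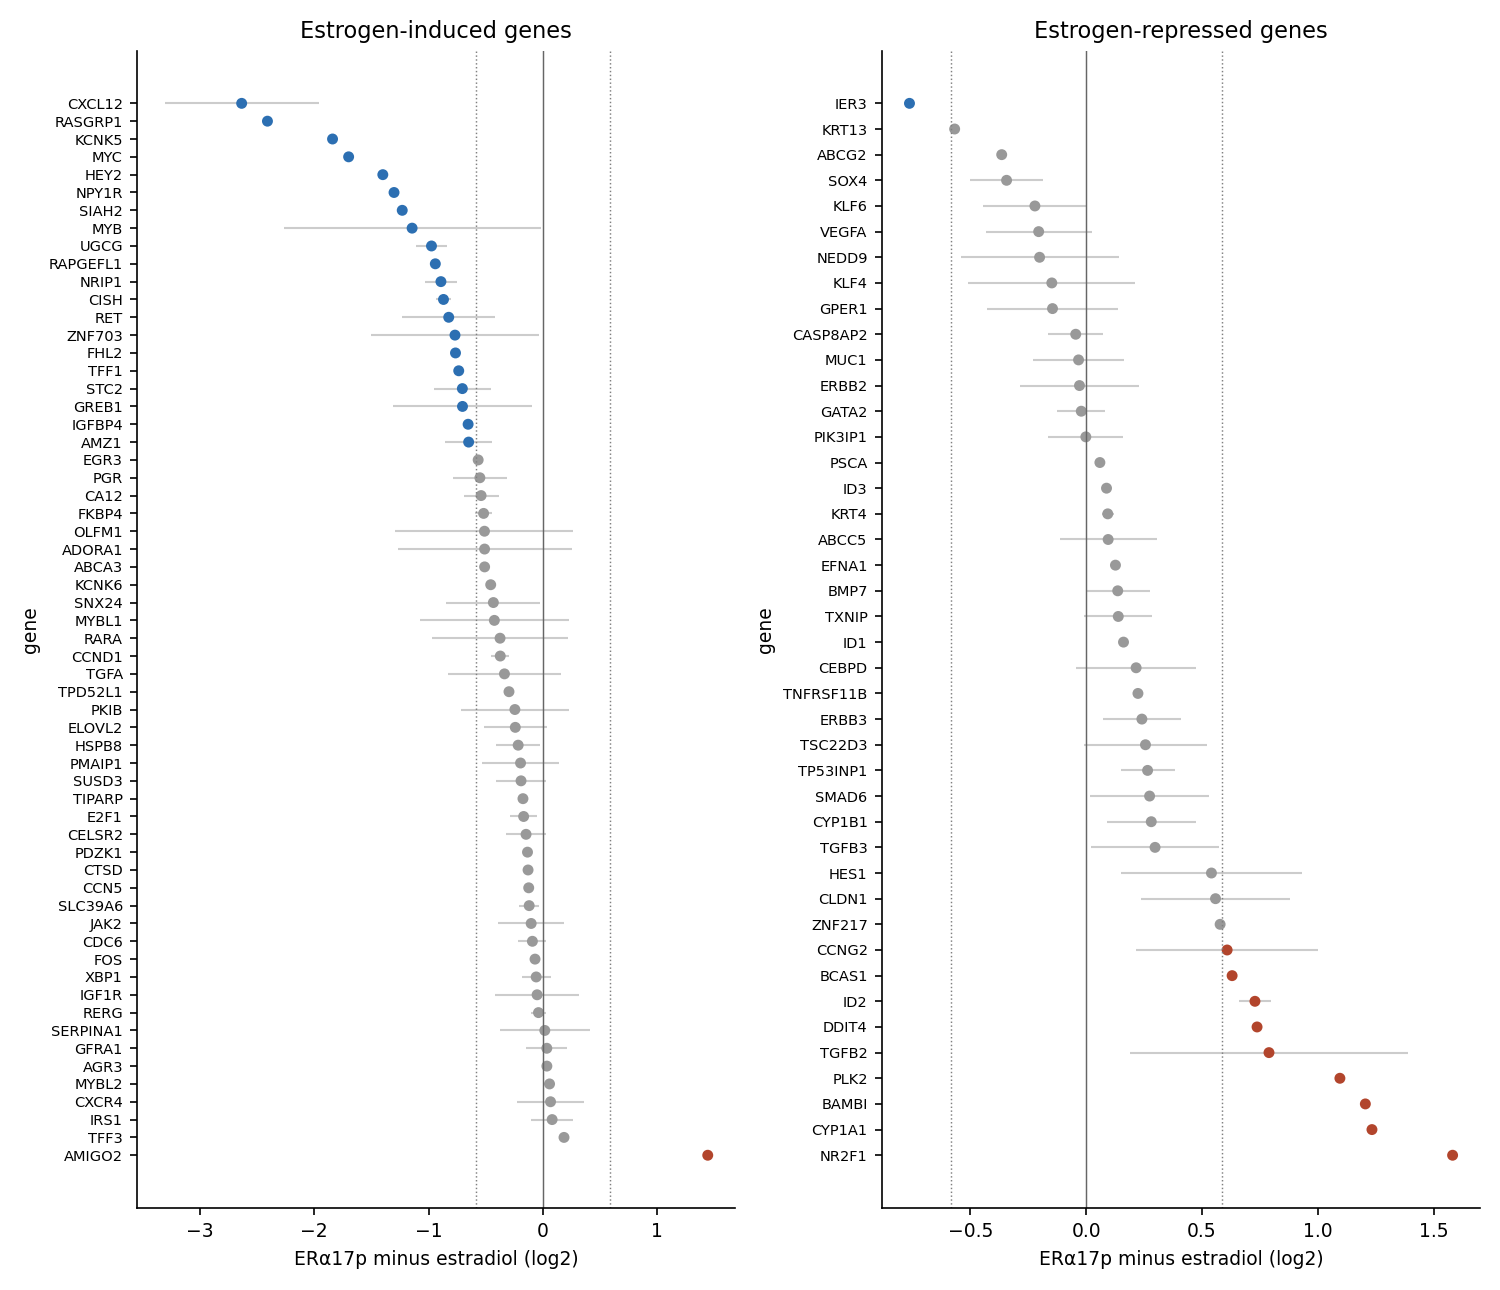
Difference (ERα17p minus estradiol, log2) of each measured member of the estrogen-induced and estrogen-repressed lists, with bars for the SD over a gene's probe sets and dotted lines at 1.5-fold. Blue marks the genes at least 1.5-fold lower (20 of 60 induced and 1 of 42 repressed) and red those at least 1.5-fold higher (1 and 9).

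The estrogen receptors themselves showed no such difference. ESR1, which encodes estrogen receptor α, was at 0.08 ± 0.25 (SD, n = 9 probe sets), with single sets between −0.22 and 0.61. ESR2, for estrogen receptor β, was at −0.07 ± 0.19 (SD, n = 6 probe sets), and GPER1, the membrane estrogen receptor, at −0.15 ± 0.28 (SD, n = 2 probe sets). All of these lay within 1.5-fold. Among 26 measured receptors and cofactors, NRIP1 was the sole gene past the line. FOXA1, the factor that opens chromatin for the receptor, was at 0.50 ± 0.05 (SD, n = 2 probe sets), and TFAP2C at −0.41 ± 0.39 (SD, n = 2 probe sets).

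**Figure D3:**
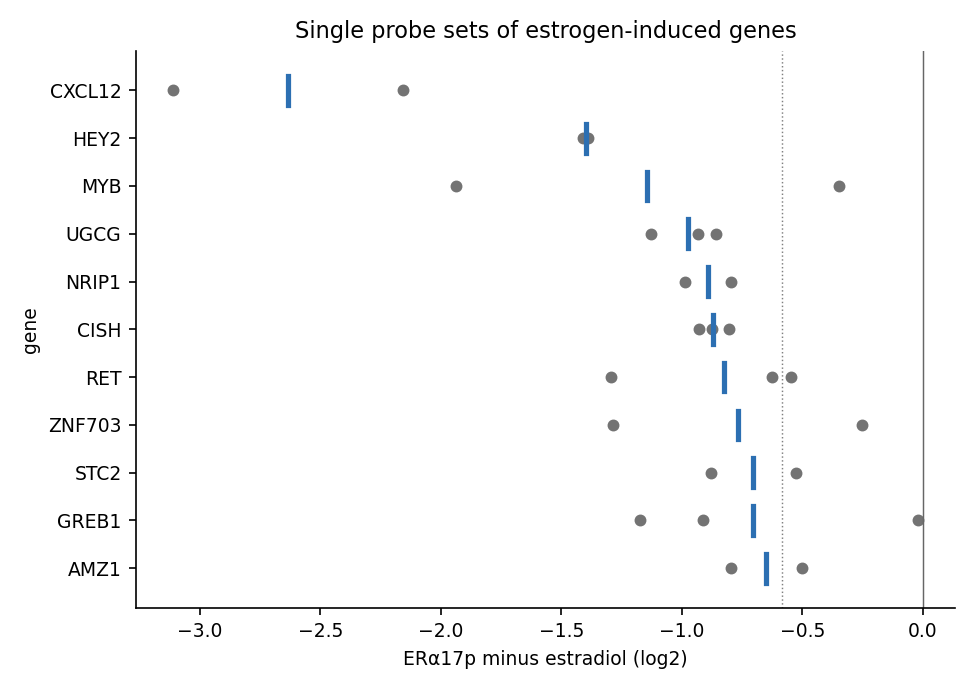
Difference (ERα17p minus estradiol, log2) of every probe set (grey points), with the gene mean as a blue bar and a dotted line at 1.5-fold lower. Only estrogen-induced list genes that were at least 1.5-fold lower and had several probe sets are drawn, so their place below 0 follows from the selection. The sets of CXCL12 lie at −3.11 and −2.16, while those of MYB lie at −1.94 and −0.35.

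Transcription factors stood in both directions. Of 1072 genes that fell into families of such factors by their symbols, 7 (0.653%) were at least 1.5-fold higher and 10 (0.933%) were lower, near the 0.521% and 0.607% of all genes. Among 38 nuclear receptors, NR2F1 was higher and NR5A2, also called LRH-1, was lower, at −0.91 ± 0.58 (SD, n = 4 probe sets). In NR5A2 the sets at −1.28, −1.23 and −1.09 agreed and the other, at −0.06, did not. The higher factors beside ID2 were TCF15 (0.91), ZNF763 (0.86 ± 0.06, SD, n = 2 probe sets), the epithelial factor GRHL3 (0.78), CITED2 (0.73 ± 0.38, SD, n = 3 probe sets) and the homeobox gene OTX1 (0.59). The lower ones beside MYC, HEY2, MYB and ZNF703 were FOXF1 (−0.77), MAFF (−0.60) and ZNF257 (−0.59).

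The coregulators of the CITED family, which bind CBP and p300, were split. CITED1 (−1.09) and CITED4 (−0.77) were lower and CITED2 was higher. All 3 CITED2 probe sets were above 0, from 0.39 to 1.14. OLIG1 (−0.86), a basic helix-loop-helix factor outside the symbol patterns, was also lower.

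Of 687 receptors 4 (0.582%) were higher and 6 (0.873%) lower, near the 0.521% and 0.607% of all genes. Among 394 G-protein-coupled receptors grouped by their symbols, 3 (0.761%) were lower and 2 (0.508%) were higher, also near those shares. C5AR2 (−0.74), a receptor outside the symbol patterns and so not counted, was lower too. The lower ones counted were ADRA2A, NPY1R and HTR1B (−0.70), a serotonin receptor, and these 3 are known to couple to inhibitory G proteins. GNAI1, a subunit of such G proteins, was higher, as given above. The higher receptors of the same class were LGR5 (0.69 ± 0.27, SD, n = 2 probe sets), which binds R-spondins and strengthens Wnt signalling, and the muscarinic receptor CHRM5 (0.70). Of 52 receptor tyrosine kinases, RET was lower and EPHA4 was higher, at 0.70 ± 0.42 (SD, n = 5 probe sets) with single sets from 0.28 to 1.36. Of 89 cytokine, TNF and TGF-β family receptors, TGFBR3, the betaglycan coreceptor, was lower at −0.95 ± 0.07 (SD, n = 2 probe sets). IL6ST, the gp130 subunit shared by the IL-6 family, was lower at −0.61 ± 0.39 (SD, n = 7 probe sets), with single sets from −1.19 to −0.12. The lectin CLEC4F (0.59) was just past the line.

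Of 300 ion channels, KCNK5 and RYR1 (−0.73), a calcium release channel, were lower and 0 were higher. NOD2 (−0.99), an intracellular sensor of bacterial peptidoglycan that stood in no class, was also lower. So were the adhesion protein CLMP (−0.81 ± 0.26, SD, n = 2 probe sets) and the surface glycoprotein TPBG (−0.81 ± 0.46, SD, n = 2 probe sets).

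Secreted factors and their inhibitors held 11 higher genes (1.47%) and 7 lower genes (0.933%) among 750 measured, beside 0.521% and 0.607% of all genes. SHISA2 and BAMBI are counted here as inhibitors by their function, although both are membrane proteins. Beside DKK1, the higher genes were NTN4 (0.92), a netrin of the basement membrane, IL36G (0.91), an epithelial cytokine of the IL-1 family, TGFB2 (0.79), EDN2 (0.67), INHA (0.67), the α subunit of inhibin, SERPINA4 (0.63), the matrix protein MATN3 (0.63) and SCGB2B2 (0.60). All but TGFB2 rested on 1 probe set. The lower genes beside CXCL12 and TFF1 were ANGPTL6 (−0.82), the glycoprotein hormones STC1 (−0.75 ± 0.82, SD, n = 3 probe sets) and STC2 (−0.70 ± 0.25, SD, n = 2 probe sets), SERPINA10 (−0.72) and IGFBP4 (−0.65), which binds insulin-like growth factors. The sets of STC1 ran from −1.30 to 0.19 and so differed in direction. BMPER (−0.85), a secreted modulator of BMPs, and EGFL6 (−0.96), a secreted EGF-like protein, lay outside the symbol patterns and were lower too. Secreted genes outside the patterns were not counted either way, and UCMA (0.78), also outside them, was higher.

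**Figure D4:**
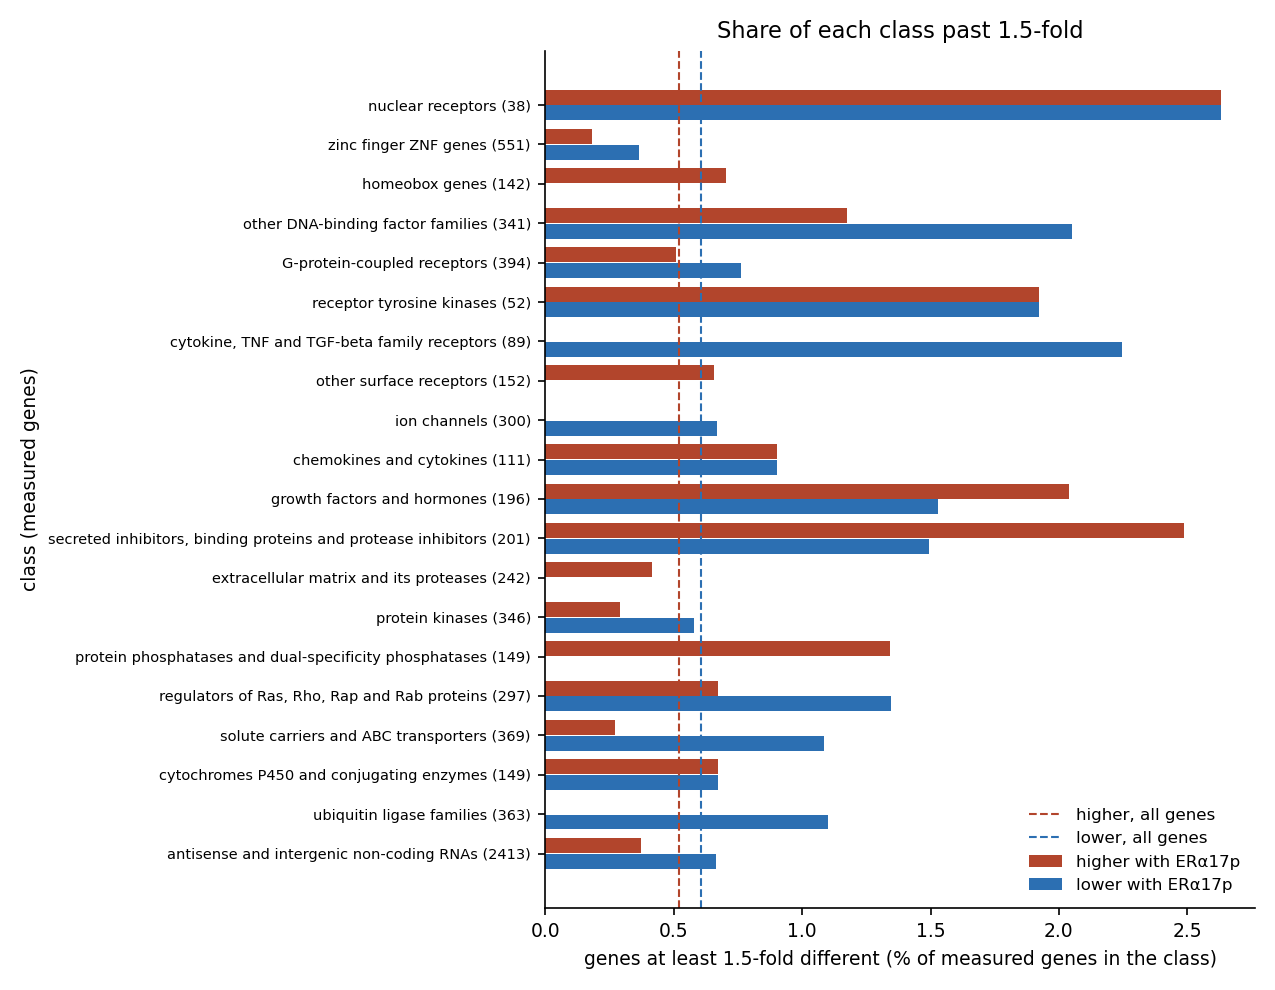
Share of the measured genes of each functional class that were at least 1.5-fold higher or lower with ERα17p than with estradiol, in percent, with dashed lines at the shares over all genes (0.521% higher and 0.607% lower). Most classes hold between 0 and 5 such genes each way, so single genes set their shares.

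Ligands, antagonists and targets of the Notch, Wnt and BMP pathways were described as a list of their own. Of 47 measured members 5 (10.6%) were higher, namely SHISA2, BAMBI, DKK1, ID2 and LGR5, beside 0.521% of all genes. HEY2 alone (2.13%) was lower, beside 0.607% of all genes, and the median was 0.06. The list was chosen with earlier results from these arrays known, so its count is not independent evidence. SHISA2, BAMBI and DKK1 are known as inhibitors, ID2 as a BMP target and LGR5 as a receptor that strengthens Wnt signalling.

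Of 346 protein kinases PLK2 was higher (0.289%), and SGK1 and TEX14, which has a degenerate kinase domain, were lower (0.578%), shares near the 0.521% and 0.607% of all genes. The dual-specificity phosphatases DUSP6 and DUSP4, which switch off MAP kinases and are themselves induced by ERK activity, were the higher members of 149 phosphatases. DUSP6 was at −0.33 with estradiol and 0.55 with ERα17p, a difference of 0.89 ± 0.22 (SD, n = 3 probe sets), and DUSP4 was at −0.60 and 0.06 (0.66 ± 0.24, SD, n = 3 probe sets). All 6 of their probe sets were higher with the peptide. In the list of immediate early and ERK feedback genes these were the 2 higher of 38, and MYC, IER3 and MAFF were the 3 lower, with a median of −0.05.

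Regulators of small G proteins differed in both directions. RASGRP1 was followed among the lower ones by RAPGEFL1 (−0.94), RAB37 (−0.65) and RAB4B (−0.60), and the higher ones were ARHGAP12 (0.68) and RASSF5 (0.65 ± 0.12, SD, n = 2 probe sets), which binds active Ras and Rap. These were 4 and 2 of 297. PLCL1 (−0.95 ± 0.89, SD, n = 2 probe sets), a phospholipase C relative without catalytic activity, was lower, and its sets lay at −1.58 and −0.32.

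Single enzymes and transporters stood in both directions, and their shares are given beside the 0.521% higher and 0.607% lower of all genes. Of 363 genes in ubiquitin ligase families, 4 (1.10%) were lower, namely SIAH2, ASB13 (−0.91), CISH and BTBD18 (−0.65), and 0 were higher. Of 369 solute carriers and ABC transporters, 4 (1.08%) were lower: the fatty acid transporter SLC27A6 (−0.68), the glucose transporter SLC2A2 (−0.67), the large neutral amino acid transporter SLC7A5 (−0.65) and the anion exchanger SLC26A6 (−0.59). SLC4A3 (0.69) was higher. Of 149 cytochromes P450 and conjugating enzymes CYP1A1 was higher and CYP4F11 (−0.59) was lower. EGLN3, a prolyl hydroxylase that marks HIF for degradation, was higher at 0.78 ± 0.00 (SD, n = 2 probe sets), and ST8SIA1, which makes the ganglioside GD3, at 0.89 ± 0.28 (SD, n = 2 probe sets). ARRDC3 (0.95), an arrestin-like adaptor for receptor turnover, was also higher.

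In the aryl hydrocarbon receptor list, CYP1A1 was the sole gene of 15 measured that was at least 1.5-fold higher. SLC7A5 was the sole gene at least 1.5-fold lower, and the median was 0.01. The receptor AHR was at 0.45 and its repressor AHRR at 0.41, both above the central 95% of all genes but short of 1.5-fold.

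Non-coding transcripts had shares close to those of all genes. Of 2413 antisense and intergenic RNAs, 9 (0.373%) were higher and 16 (0.663%) were lower. The lowest was ELOVL2-AS1. LINC01016 differed by −0.68 ± 0.91 (SD, n = 4 probe sets), and its sets ran from −1.88 to 0.18.

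Several pathways held few or no genes past the line. With 0.521% of all genes higher and 0.607% lower, a count of 0 in lists this short does not set them apart. Calmodulin and its enzymes were listed because the peptide's stretch of the receptor binds calmodulin: 0 of 26 measured members were past 1.5-fold, with a range of −0.18 to 0.31, where PPP3CA, the catalytic subunit of calcineurin, was the highest at 0.31 ± 0.16 (SD, n = 3 probe sets). Of 38 genes of the G2 to M phase and 39 of the G1 to S phase 0 were past it, with ranges of −0.27 to 0.22 and −0.37 to 0.55. In the latter list CDKN1B, which encodes the inhibitor p27, was the highest at 0.55. Of 29 NF-κB and inflammatory genes 0 were past it, and CCL2, at 0.49, was the highest.

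In the last 3 lists more members lay below 0 than above it, where 9569 of all 19775 genes lay below 0. This also held in other lists, among them G2 to M (23 of 38 below 0) and G1 to S (22 of 39). Of 35 ribosome biogenesis and MYC-linked genes 0 were past 1.5-fold, yet 30 lay below 0, with a median of −0.15, and POLR1C, a subunit of RNA polymerases I and III, was the lowest at −0.36 ± 0.11 (SD, n = 2 probe sets). Of 34 interferon response genes 25 lay below 0, with a median of −0.16. IFI27 (−0.87) was the sole member past the line (2.94%, beside 0.607% of all genes lower). HERC5 (−0.58) and RSAD2 (−0.52 ± 0.34, SD, n = 2 probe sets) followed. Among 36 amino acid and unfolded protein stress genes DDIT4 was higher (2.78%, beside 0.521% of all genes). STC2 and SLC7A5 were lower (5.56%, beside 0.607%), with 24 members below 0 and a median of −0.06.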

How the data were processed

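RNA of each T47D culture was hybridised to 1 Affymetrix HG-U133 Plus 2 array, per the labels' protocols. The submitters' processing notes name RMA as the tool behind the deposited log2 values. The version, the log base and the baseline on which each probe set is centred are not stated there. The log base was taken as 2 because RMA writes log2 values. Signal over background is unknown, and the number of arrays limits the precision.

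Of 54675 probe sets, 62 controls were left out of the gene values. The platform annotation gave 41091 probe sets 1 gene symbol, 1801 several and 11721 none, and only the first kind entered the gene values. Of the 19775 genes, 19730 matched a RefSeq gene record, and 9252 had 1 probe set. A gene's difference is its mean over probe sets, ERα17p minus estradiol, with an SD over probe sets. Genes were counted at 1.5-fold (0.584963 on the log2 scale) and at 2-fold. Functional classes (20) were assigned by patterns in gene symbols, and 17 gene lists were written by hand. The comparison, classes and lists were chosen with earlier results of these data known. The leucine-rich repeat families were chosen after seeing the values.

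Genes that could be named were all genes at 2-fold, the 40 largest differences each way at 1.5-fold, every gene at 1.5-fold in a class or list, the 4 most different members of each list at most, and CXCL12, RASGRP1, SHISA2, NR2F1, ESR1, ESR2, GPER1, PGR, TFF1, GREB1, MYC, CCND1, CXCR4, ACKR3 and CYP1A1. These were 190 genes, and not all of them are described. Genes outside this rule are C5AR2, the neighbours of the threshold, the mitochondrial mRNAs and the leucine-rich repeat and pseudogene families, named after their values were seen. Alternatives were the median over probe sets in place of the mean, leaving out probe sets whose identifier ends in _x_at or _s_at, quantile matching, median centring, 2-fold, single probe sets, and all probe sets past the threshold. Scripts were tested on simulated data. Python 3.11.15, numpy 2.4.6, pandas 2.3.3 and matplotlib 3.10.9 were used.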

Additional observations from a re-analysis of the deposited data

How the results depend on the processing

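Without replicates, these counts show how the values depend on the processing and not how they would vary between cultures. The count of 103 higher genes became 12 at 2-fold, 442 when single probe sets were counted and 9 when every probe set of a gene with several had to pass. The count of 120 lower genes became 17, 694 and 9 under the same settings. Other settings were the median over probe sets, leaving out sets ending in _x_at or _s_at (17098 genes), quantile matching and median centring. In that order the higher count was 106, 110, 126 and 100, and the lower count 121, 127, 111 and 133. The median of the estrogen-induced genes, −0.40, was −0.30 with the median of probe sets and −0.38 after quantile matching. It was −0.24 without the _x_at and _s_at sets, with 51 members left and MYC, KCNK5 and NPY1R among those lost. Of the 144 genes past 1.5-fold that the naming rule allows, 142 stayed past it with the median of probe sets, 138 after quantile matching and 123 of the 125 still measured without those probe sets, and 0 of them changed direction in these 3 settings. Of all 190 genes the rule allows, 1 changed sign with the median over probe sets, ACKR3 (0.07 to −0.11), and 4 without those probe sets: CXCR4 (0.07 to −0.19), LYZ (−0.20 to 0.26), ESR1 (0.08 to −0.01) and ANLN (0.21 to −0.00092). After quantile matching 0 changed sign. No paired analysis was possible because each group had 1 array and no result came from a test.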

Other observations

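Several leucine-rich repeat proteins of the cell surface were among the genes higher with ERα17p. These proteins serve in cell adhesion and in the formation of synapses, and some modulate growth factor receptors. AMIGO2 (1.44), LRIG3 (1.27), FLRT3 (1.23 ± 0.15, SD, n = 2 probe sets) and SLITRK6 (0.91 ± 0.24, SD, n = 3 probe sets) were past 1.5-fold. Of 36 measured genes of these families 4 (11.1%) were higher and 0 lower, beside 0.521% and 0.607% of all genes. The families were chosen after these values were seen, so the choice itself raises this share and it is no evidence about the families. Their other members were spread on both sides of 0, and the median was 0.01. The nearest relatives did not share the difference, with AMIGO1 at 0.21, LRIG1 at −0.09 ± 0.34 (SD, n = 4 probe sets) and FLRT2 at −0.07 ± 0.05 (SD, n = 3 probe sets). ISLR, at −0.58, was the lowest.

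Genes with the plain pseudogene label, which is kept apart from that of transcribed pseudogenes, held 5 higher members (7.14%) among 70 measured and 0 lower ones. The 5 were RPL7AP9 (1.03), UBBP1 (0.85), RPL7AP10 (0.73), BTF3P12 (0.68) and ATP5MC2P1 (0.62). This group was singled out after the values were seen. Over all pseudogene types, 5 of 497 (1.01%) were higher and 3 (0.604%) were lower, beside 0.521% and 0.607% of all genes. The parent genes of pseudogenes cannot be told apart from them by these probe sets.

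The probe sets without a gene symbol in the platform annotation were more often lower than higher with ERα17p. Of 11721 such sets, 206 (1.76%) were at least 1.5-fold lower and 57 (0.486%) higher, and at 2-fold 13 were lower and 1 higher. Of the 41091 sets with 1 symbol, 469 (1.14%) were lower and 366 (0.891%) higher. The lowest were 243168_at, at 1.09 with estradiol and −0.92 with ERα17p (−2.01), and 243806_at, at 0.37 and −1.60 (−1.97). Both differences are as large as those of the genes that stood lowest after CXCL12 and RASGRP1. The highest was 231038_s_at, at −0.65 and 0.40 (1.05).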
